A study of Mus musculus with 9 samples.

Results

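The genes described are 45 genes of DNA replication and mitosis, taken by symbol from the deposited table of read counts in mouse conjunctiva, the thin mucosa of the inner eyelid and the eye's surface. The list was given as names and its rule used no measured value, though it was drawn up with earlier results of these data known. All 45 were among the 20603 genes of the table, and all 45 had enough counts to be among the 15613 tested. Each of the 9 libraries pooled conjunctiva of 3 mice of 1 genotype and treatment on a C57BL/6j background, and there were 3 libraries in each of 3 groups. The challenged knockouts were Vegfr3 fl/fl;prox1CreERT2 mice (Vegfr3iLECko), in which tamoxifen activates a Cre recombinase under the Prox1 promoter to delete Vegfr3 in lymphatic endothelial cells. The challenged controls were Vegfr3 fl/fl littermates without the Cre. The unchallenged controls had the control genotype too. All 3 groups shared tamoxifen (5 doses of 75 mg/kg, week 5) and sensitization at week 6 to the allergen ovalbumin (OVA, 250 µg), given with pertussis toxin (0.3 µg) and aluminum hydroxide (5 mg). In both challenged groups the right eye then received drops of OVA (250 µg in 5 µL) each day for 28 days, beginning 14 days later, and the left eye received saline. Which eye each pool was dissected from is not stated.

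A dividing cell first copies its DNA and then separates the copies. In the first phase the MCM proteins, loaded onto origins by Cdc6 and Cdt1, unwind DNA for the polymerases, which PCNA clamps to the template. In the second phase cyclin B with Cdk1 drives entry into mitosis, kinetochores attach chromosomes to the spindle, and the anaphase-promoting complex releases them. The transcripts of the first phase are known targets of E2F factors, and those of the second of the DREAM and FOXM1 complexes. In surface epithelia such as the conjunctiva, dividing cells are found mainly in the basal layer, and activated lymphocytes divide too. The 45 genes fall into 14 of DNA replication, 29 of mitosis and cytokinesis, and the transcription factor genes E2f1 and Foxm1.

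Total counts were 16490050 to 24746836 per library. The 45 genes had 76 to 4446 counts each in a library, so counting error was small beside the spread between pools: the lowest, 76 counts of Ttk in unchallenged control 3, has an exact 95% Poisson interval of 59.9 to 95.1, which covers counting error only. Flt4, the gene of Vegfr3, was at 12.96, 5.07 and 5.32 CPM in challenged knockouts 1 to 3, 13.4, 20.3 and 20.1 CPM in challenged controls 1 to 3, and 18.5, 26.8 and 13.5 CPM in unchallenged controls 1 to 3. Challenged knockout 1 thus lay just below the lowest control, and the other knockouts far below. The same library stood apart in eyelid gland and hair genes: a list of 6 meibomian gland genes summed to 482 CPM in it and to 94.2 to 139.7 CPM in the other 8 libraries, and the 5 hair follicle genes in the table to 162 CPM against 4.45 to 9.04 CPM. Challenged control 1 was the highest of the 9 libraries for 22.3% of all genes tested and the lowest for 21.4%. The conjunctival and goblet cell list (Krt4, Krt13, Muc5ac, Spdef and Tff1) summed to 5375 to 9394 CPM in challenged knockouts, 6340 to 7844 CPM in challenged controls and 5690 to 8317 CPM in unchallenged controls, though Tff1 was too low to be tested. Corneal genes were present in every library as well, with list sums of 1045 to 3725 CPM. Levels are CPM, counts scaled to library size with TMM factors. In pooled tissue, fewer dividing cells and less of these RNAs per cell cannot be told apart.

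The 45 genes varied strongly from pool to pool, and they did so as a pair of blocks. The ratio of the highest to the lowest library had a median of 2.77 over the 45 genes, from 1.70 for Pcna to 4.02 for Plk1. Over the 8658 genes with a mean level in the same range (8.02 to 113.6 CPM) that median was 1.80. Among the 29 mitosis genes, challenged control 3 was the highest of the 9 libraries for 25, and the mean level over these genes, on a log2 scale centred on each gene's mean, was 0.82 there. It was 0.64 in unchallenged control 2 and 0.55 in challenged control 2, and 0.15 in challenged knockout 2. The other 5 libraries were low: -0.32 and -0.51 in challenged knockouts 1 and 3, -0.25 in challenged control 1, and -0.52 and -0.56 in unchallenged controls 1 and 3. Thus the high pools came from both control groups, and each control group held a high and a low pool. For 27 of the 29 mitosis genes, challenged controls 2 and 3 and unchallenged control 2 all lay above the other 6 libraries, an order found in 1.21% of all genes tested. The exceptions were Aurkb and Ndc80, for which challenged knockout 2 was higher than 1 or more of those 3. This order was picked out after the values were seen and is a description.

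The 14 replication genes ordered the 9 pools differently, though both blocks mostly had the same highest pool within each group. Challenged knockout 2 was the highest knockout for 14 of 14 replication and 27 of 29 mitosis genes (28.8% of all genes tested). Challenged control 3 was the highest of its group for 13 and 27 of them (31.5% of all genes). Unchallenged control 2 was the highest of its group for 13 and 29 (28.5% of all genes). The mean centred level of the replication genes was 0.67 in challenged knockout 2 and 0.52 in challenged control 3. It was between -0.44 (unchallenged control 1) and 0.05 (unchallenged control 2) in the other 7. For 12 of the 14, challenged knockout 2 and challenged control 3 lay above the other 7 libraries, against 4.82% of all genes tested. The exceptions were Mcm4 and Gins2. This order too was picked out after the values were seen and is a description. Challenged control 2, a high pool for mitosis genes, was the lowest challenged control for 11 of the 14 replication genes, and the lowest for 0 of the 29 mitosis genes. Challenged knockout 2 lay above challenged control 2 for 14 of 14 replication genes and for 1 of 29 mitosis genes. The mean level of replication genes minus that of mitosis genes was 0.10, 0.52 and 0.48 in challenged knockouts 1 to 3. The challenged controls stood at 0.24, -0.78 and -0.30, and the unchallenged controls at 0.08, -0.59 and 0.25. The groups overlapped in this difference, since challenged control 1 lay above challenged knockout 1.

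**Figure D1:**
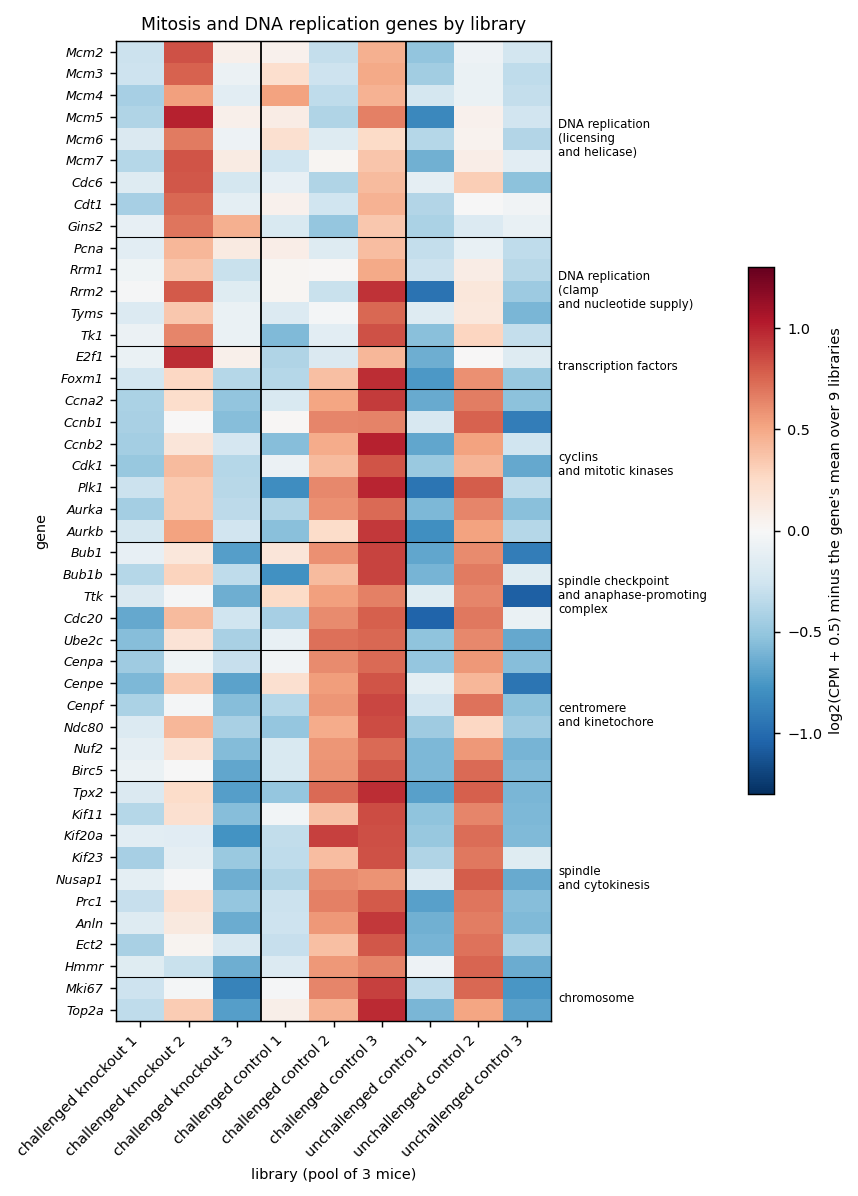
Level of each of the 45 genes (rows, by role) in each of the 9 libraries (columns, by group), as log2(CPM + 0.5) minus the gene's mean over the 9 libraries; red is above and blue below that mean. The mitosis rows are red in challenged controls 2 and 3 and unchallenged control 2, while the replication rows are reddest in challenged knockout 2 and challenged control 3.

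**Figure D2:**
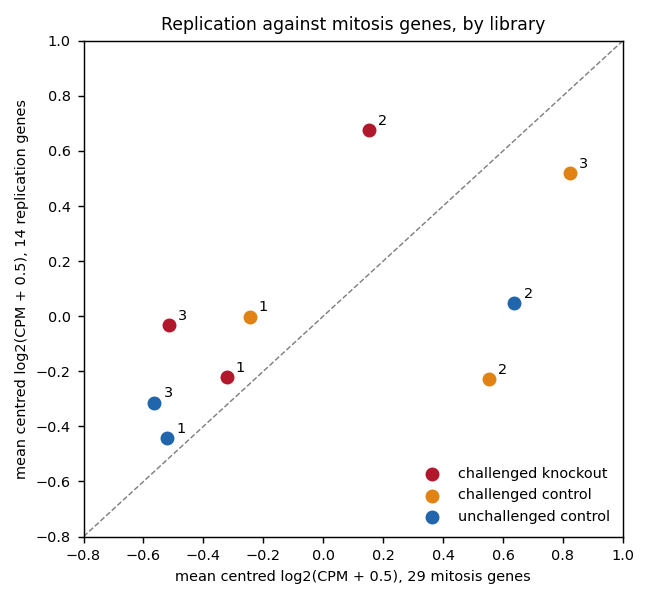
Mean centred log2(CPM + 0.5) of the 14 replication genes (vertical axis) against that of the 29 mitosis genes (horizontal axis), 1 point per library with its replicate number; on the dashed line both are equal. Challenged knockout 2 lies at 0.67 and 0.15, while challenged control 2 lies at -0.23 and 0.55, on the other side of the line.

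Genes of the same processes outside the 45 showed these orders too. Of 45 other mitosis genes, all of them tested, 25 had challenged controls 2 and 3 and unchallenged control 2 above the other 6 libraries (55.6%, against 1.21% of all genes). Of 30 other replication genes, 22 had challenged knockout 2 and challenged control 3 above the other 7 (73.3%, against 4.82%). These lists were written from textbook knowledge of the processes, not from their values, but with earlier results of the same data known. They were read in the same 9 libraries, so the shared orders are a description and not a separate test.

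Cell type markers moved with some of these pools. The basal epithelial list (Krt5, Krt14, Krt15, Trp63, Itga6, Itgb4 and Col17a1, all 7 tested, 0 of them at 0) summed to 19010, 40540 and 31100 CPM in challenged knockouts 1 to 3. The challenged controls had sums of 17060, 24140 and 34360 CPM, and the unchallenged controls 18310, 22170 and 33530 CPM. It was thus highest in challenged knockout 2 and challenged control 3 of their groups, as the replication genes were, but lower in unchallenged control 2 than in unchallenged control 3. The activated epithelium keratins (Krt6a, Krt6b, Krt16 and Krt17, 4 of 4 tested) summed to 4716, 7483 and 4928 CPM in challenged knockouts, 8132, 5498 and 6968 CPM in challenged controls and 4457, 4845 and 5804 CPM in unchallenged controls. The part of either list in the levels of the 45 genes was not tested. T cell genes, all 8 of their list tested, summed to 27.9, 32.0 and 23.3 CPM in challenged knockouts, 153, 76.5 and 84.2 CPM in challenged controls and 23.1, 14.2 and 19.9 CPM in unchallenged controls. The sum was highest in challenged control 1, the lowest challenged control for all 29 mitosis genes, and lowest in unchallenged control 2, the highest unchallenged control for all 29. Between the groups, though, T cell genes had the same signs as the mitosis genes. At an unadjusted p of 0.05, 8 of 8 were higher with challenge (6.77% of all genes) and 7 of 8 lower with genotype (4.53%). With challenge, 2 of the 8 passed the adjusted p (0.064% of all genes). The median log2 fold changes of the T cell genes were 2.23 with challenge and -1.84 with genotype. Of 6 macrophage genes, 3 were higher with challenge and 2 lower with genotype at an unadjusted p of 0.05, beside the same shares of all genes. Their list summed to 550.5, 352.5 and 371.1 CPM in challenged knockouts 1 to 3. The sums were 847.4, 658.4 and 427.4 CPM in challenged controls and 522.7, 455.5 and 340.3 CPM in unchallenged controls. The part of these cells in the levels of the 45 genes was not tested. Of a list of 8 B cell and germinal centre genes, 3 had enough counts to be tested. With challenge all 3 were above 0 (median log2 fold change 0.59, 48.5% of all genes above 0). With genotype all 3 were below 0 (median -0.92, 49.6% of all genes below 0). At an unadjusted p of 0.05, 0 of the 3 were higher with challenge (6.77% of all genes) and 0 lower with genotype (4.53%). Their part in the levels of the 45 genes was not tested either.

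The promoters of both blocks were searched for known cell cycle motifs. Of the 45 genes, 38 matched an entry of the RefSeq promoter table (build GRCm38.p6, 300 bases each, 250 before and 50 after the start). Aurkb, Ccna2, Foxm1, Gins2, Kif20a, Mcm4 and Tpx2 had no entry. The motifs searched, on either strand, were TTTGAA and TTCGAA (the cell cycle homology region, the known site of the DREAM complex in mitosis promoters), CCAAT (the NF-Y box) and GCGGGAA (an E2F-like site). No match of one overlapped a match of another. A cell cycle homology motif stood in 20 of 25 mitosis promoters (80.0%) and 2 of 12 replication promoters (16.7%), against 21.7% of all 27025 genes in the promoter table. It lay within 75 bases of the start in 19 of the 25 (76.0%, against 7.94% of all). The E2F-like motif stood in 5 of 12 replication promoters (41.7%) and 0 of 25 mitosis promoters, against 5.29% of all. The NF-Y box stood in 20 of 25 mitosis and 8 of 12 replication promoters, against 41.1% of all. Over the 14215 genes of the count table with a promoter, the homology motif stood in 17.6%, and within 75 bases of the start in 5.92%. The E2F-like motif stood in 8.45% of these genes and the NF-Y box in 41.6%. In the other lists the homology motif stood in 28 of 38 mitosis promoters (73.7%) and 6 of 22 replication promoters (27.3%). The E2F-like motif stood in 11 of 22 other replication promoters, and also in 7 of 38 other mitosis promoters (18.4%), so its absence from the 25 above did not extend to other mitosis genes. The match of letters is a description and does not show a factor bound there in these samples.

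To show what the motifs look like in place, promoters of 9 of the genes follow, 5′ to 3′ along the gene. Mki67, Top2a, Cdk1 and Cenpa were picked because they hold the homology motif, and Mcm3, Rrm1 and Cdc6 because they hold the E2F-like motif, so they are examples and do not stand for their blocks. Ccnb1 (mitosis) is shown as a gene that lacks the homology motif, as Cenpe, Nuf2, Birc5 and Nusap1 do. Pcna (replication) is shown as a gene that lacks the E2F-like motif, as most replication promoters searched do, Rrm2 among them. Capitals mark every match of the motifs above. Mki67 lies at chr7:135716330-135716629 on the minus strand, Top2a at chr11:99024140-99024439 on the minus strand, Cdk1 at chr10:69352863-69353162 on the minus strand, Cenpa at chr5:30666636-30666935 on the plus strand and Ccnb1 at chr13:100786437-100786736 on the minus strand. Mcm3 lies at chr1:20820263-20820562 on the minus strand, Rrm1 at chr7:102441445-102441744 on the plus strand, Cdc6 at chr11:98907901-98908200 on the plus strand and Pcna at chr2:132253131-132253430 on the minus strand, all in GRCm38.p6, whereas the counts were made on mm39.
Mki67: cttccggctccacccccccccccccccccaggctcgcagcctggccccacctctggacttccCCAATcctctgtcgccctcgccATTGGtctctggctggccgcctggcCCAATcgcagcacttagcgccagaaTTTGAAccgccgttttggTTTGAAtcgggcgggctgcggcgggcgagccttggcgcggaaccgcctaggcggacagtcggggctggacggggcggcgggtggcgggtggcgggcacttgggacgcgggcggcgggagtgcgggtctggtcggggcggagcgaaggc
Top2a: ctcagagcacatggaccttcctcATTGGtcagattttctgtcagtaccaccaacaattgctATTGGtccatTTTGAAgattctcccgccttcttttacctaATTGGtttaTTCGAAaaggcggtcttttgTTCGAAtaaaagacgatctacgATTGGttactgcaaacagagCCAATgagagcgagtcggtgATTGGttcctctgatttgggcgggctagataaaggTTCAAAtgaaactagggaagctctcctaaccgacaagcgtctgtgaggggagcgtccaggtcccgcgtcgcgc
Cdk1: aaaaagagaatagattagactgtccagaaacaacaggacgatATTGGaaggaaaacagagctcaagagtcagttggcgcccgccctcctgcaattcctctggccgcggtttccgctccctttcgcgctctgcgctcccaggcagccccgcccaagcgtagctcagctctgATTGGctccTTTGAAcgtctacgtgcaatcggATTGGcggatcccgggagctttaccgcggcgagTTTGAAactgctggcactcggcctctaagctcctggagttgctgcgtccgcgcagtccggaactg
Cenpa: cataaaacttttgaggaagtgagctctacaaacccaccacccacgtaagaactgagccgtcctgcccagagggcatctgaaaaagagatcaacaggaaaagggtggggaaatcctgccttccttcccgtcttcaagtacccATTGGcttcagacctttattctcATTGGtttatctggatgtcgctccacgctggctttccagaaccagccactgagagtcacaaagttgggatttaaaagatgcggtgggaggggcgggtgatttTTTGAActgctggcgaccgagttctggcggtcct
Ccnb1: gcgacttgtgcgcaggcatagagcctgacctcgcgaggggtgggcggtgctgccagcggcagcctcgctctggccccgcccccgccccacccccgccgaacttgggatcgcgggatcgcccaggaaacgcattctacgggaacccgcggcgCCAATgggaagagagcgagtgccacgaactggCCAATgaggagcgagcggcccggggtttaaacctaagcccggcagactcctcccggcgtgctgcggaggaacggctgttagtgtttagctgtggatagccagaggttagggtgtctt
Mcm3: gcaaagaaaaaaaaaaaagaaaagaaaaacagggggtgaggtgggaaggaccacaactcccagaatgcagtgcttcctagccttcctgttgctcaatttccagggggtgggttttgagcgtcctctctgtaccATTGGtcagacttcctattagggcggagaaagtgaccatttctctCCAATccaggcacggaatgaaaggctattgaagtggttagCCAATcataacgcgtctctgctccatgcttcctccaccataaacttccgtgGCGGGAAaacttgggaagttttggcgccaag
Rrm1: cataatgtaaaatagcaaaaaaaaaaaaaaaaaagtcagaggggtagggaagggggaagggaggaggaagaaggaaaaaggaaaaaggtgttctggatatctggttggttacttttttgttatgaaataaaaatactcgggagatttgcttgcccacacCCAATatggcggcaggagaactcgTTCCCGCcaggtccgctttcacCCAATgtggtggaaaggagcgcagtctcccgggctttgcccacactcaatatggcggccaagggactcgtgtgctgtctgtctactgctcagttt
Cdc6: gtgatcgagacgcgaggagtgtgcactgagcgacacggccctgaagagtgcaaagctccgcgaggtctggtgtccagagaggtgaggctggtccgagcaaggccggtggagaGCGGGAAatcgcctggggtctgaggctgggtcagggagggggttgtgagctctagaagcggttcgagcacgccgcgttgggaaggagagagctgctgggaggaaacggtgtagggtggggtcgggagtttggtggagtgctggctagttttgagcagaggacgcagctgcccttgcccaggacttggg
Pcna: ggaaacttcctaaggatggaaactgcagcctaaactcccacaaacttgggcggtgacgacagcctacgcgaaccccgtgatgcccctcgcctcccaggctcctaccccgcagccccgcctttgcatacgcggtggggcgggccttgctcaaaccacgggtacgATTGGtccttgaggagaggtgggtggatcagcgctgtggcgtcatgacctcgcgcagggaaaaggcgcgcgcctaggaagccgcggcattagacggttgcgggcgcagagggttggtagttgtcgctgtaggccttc
The first 4 hold 1 to 4 homology motifs and 2 to 6 NF-Y boxes each. The promoter of Ccnb1 holds 2 NF-Y boxes and that of Pcna 1, with neither of the other motifs.

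The first comparison asked what repeated OVA challenge did in control mice (challenged minus unchallenged controls, by edgeR's quasi-likelihood test with Benjamini-Hochberg adjustment). The mean levels of replication and mitosis genes were higher in challenged than in unchallenged controls, but the pools overlapped and 0 of the 45 genes passed an adjusted p of 0.05, against 0.064% of all genes tested (10 of 15613). With the replicate number as a block, 267 of all genes and again 0 of the 45 passed (lowest adjusted p = 0.202). The block was added because same-numbered control pools deviated together in these same counts, and the labels state no pairing. It also tied in the knockouts, whose numbers were not taken as pairs. Its values are thus a description and not a test of a known pairing. DESeq2 called 770 of all genes and 0 of the 45. The log2 fold change was above 0 for 45 of the 45 genes, against 48.5% of all genes (and below 0 for 0, against 51.5%), with a median of 0.46 (0.37 over replication and 0.51 over mitosis genes, against -0.01 over all genes). Since the genes of a block move together from pool to pool, that shared sign does not count as 45 observations. At an unadjusted p of 0.05, 0 of 45 were higher (6.77% of all genes) and 0 lower (5.65%). With the block, 7 of 45 were higher (8.81% of all genes) and 0 lower (7.74%). All challenged controls lay above all unchallenged controls in 0 of 45 (7.21% of all genes) and below them in 0 (8.5%). The 95% interval of each of the 45 included 0, and reached a median of 0.85 on the log2 scale to either side of the estimate, less for genes of low spread such as Pcna. The difference depended on which same-numbered pools are set side by side: over the mitosis genes the median log2 difference between challenged and unchallenged control was 0.31 for pools numbered 1, -0.09 for pools numbered 2 and 1.39 for pools numbered 3. For the replication genes it was 0.42, -0.24 and 0.80. Without challenged control 3 the median over all 45 was 0.23, and without unchallenged control 2 it was 0.92.

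The second comparison asked what loss of Vegfr3 in lymphatic vessels did under challenge (challenged knockouts minus challenged controls, called genotype below). Mitosis genes were lower in challenged knockouts than in challenged controls on average, while replication genes were at like mean levels, but again 0 of 45 passed by edgeR, against 0% of all genes tested (0 of 15613, with 617 higher and 708 lower at an unadjusted p of 0.05, and 242 called by DESeq2, which called 0 of the 45). The median log2 fold change was -0.69 over the 29 mitosis genes, each of them below 0, and 0.04 over the 14 replication genes, of which 10 were above 0. Among all genes 49.6% were below and 50.4% above 0. At an unadjusted p of 0.05, 2 of 45 genes were lower, Mki67 and Cenpa, against 4.53% of all genes, and 0 higher, against 3.95%. By DESeq2, 8 of 45 were lower at that p, against 4.62% of all genes, and 0 higher, against 3.66%. These shares are over 20603 genes without the filter on low counts, so they are not on a par with those of edgeR. In 5 of 45 (Ccnb1, Bub1, Ttk, Cenpa and Mki67) all challenged knockouts lay below all challenged controls, against 6.24% of all genes, and in 0 above them, against 6.7%. The 95% intervals again reached a median of 0.85 to either side. The replication median was -0.29 without challenged knockout 2 and -0.09 without challenged control 2, and 0.32 without challenged control 3, so its sign rested on single pools. The mitosis median was -0.42 without challenged control 3, -0.51 without challenged knockout 3 and -0.64 without challenged knockout 1, the library with eyelid gland genes. Challenged controls are in both comparisons, so their values are given side by side and not set against each other.

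In the third comparison, of challenged knockouts with unchallenged controls, which differ in genotype and challenge together, 0 of 45 passed, against 0% of all genes (14 by DESeq2, 0 of them among the 45). The log2 fold change was above 0 for 14 of 14 replication genes (median 0.41) and for 3 of 29 mitosis genes (median -0.17), against 50.7% of all genes above and 49.3% below 0. The groups overlapped in all 45 genes, while 3.26% of all genes lay without overlap above and 3.33% below. Without unchallenged control 2 the mitosis median was 0.37, and without challenged knockout 2 the replication median was 0.09. At an unadjusted p of 0.05, 0 of the 45 were higher (1.25% of all genes) and 0 lower (1.65% of all genes).

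**Figure D3:**
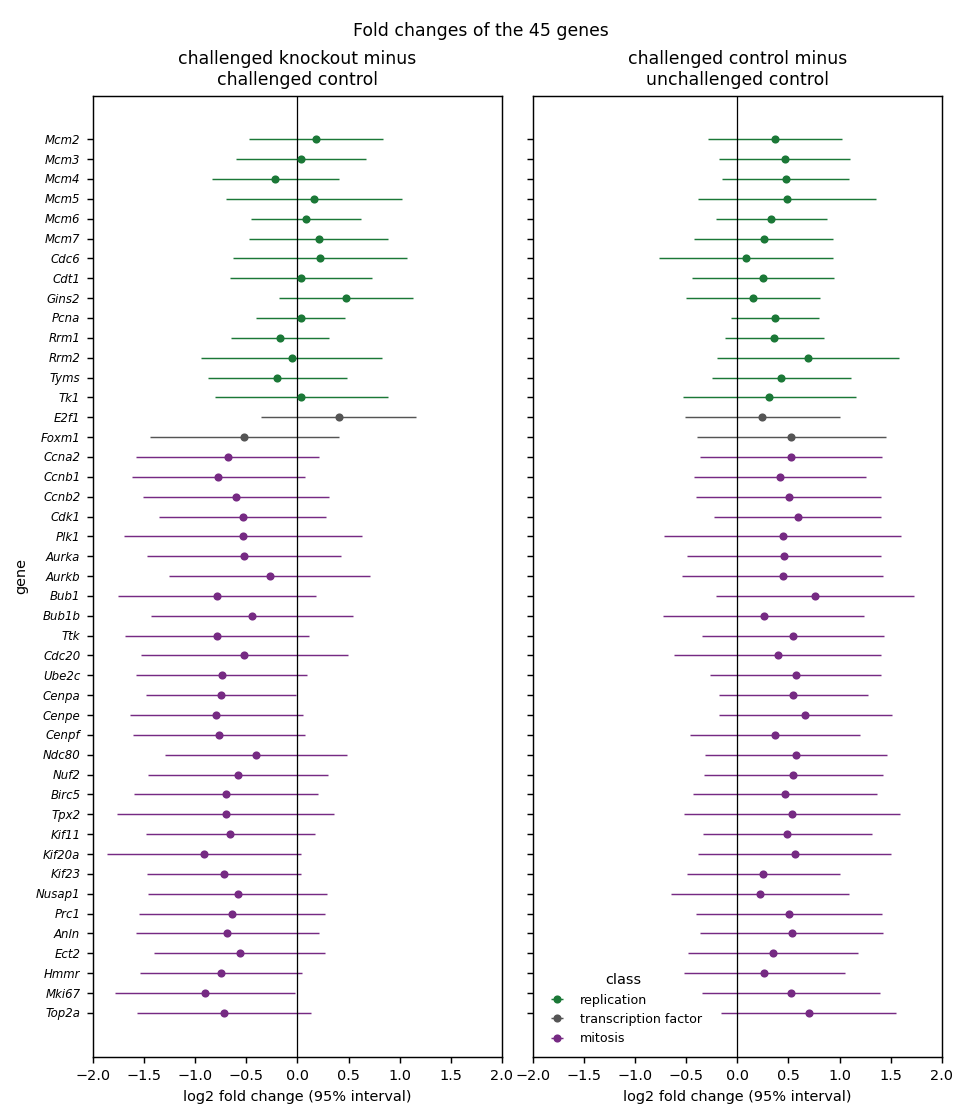
Log2 fold change of each of the 45 genes with its 95% interval from the fit over all genes, for challenged knockouts minus challenged controls (left) and challenged controls minus unchallenged controls (right); colours give the class. Every interval on the right includes 0, and on the left all but those of Cenpa and Mki67 do.

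**Figure D4:**
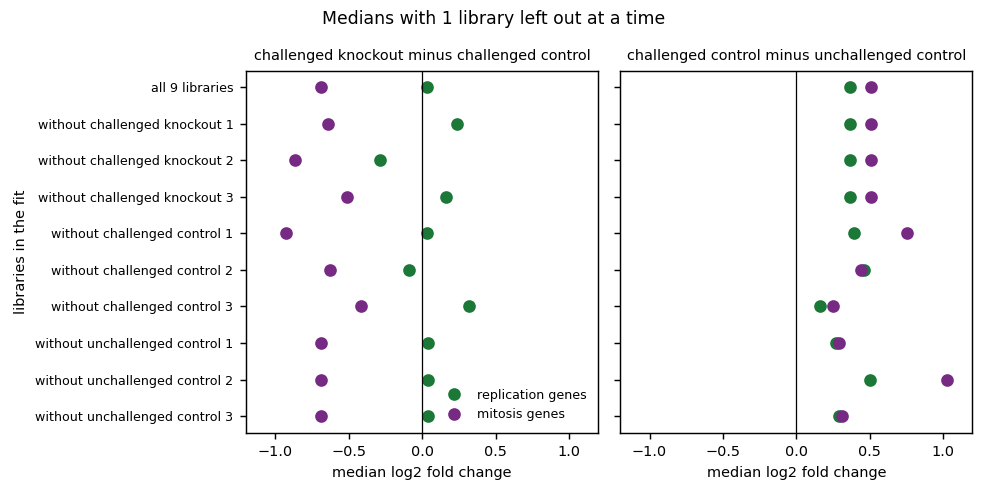
Median log2 fold change of the 14 replication and the 29 mitosis genes with all 9 libraries and with 1 library left out at a time, in both comparisons. On the left the replication median runs from -0.29 to 0.32 and the mitosis median from -0.93 to -0.42; on the right the mitosis median runs from 0.25 to 1.03.

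By role, the first block is the licensing and helicase genes. Mcm4, a subunit of the replicative helicase, was at 50.9, 99.4 and 62.4 CPM in challenged knockouts 1 to 3, 98.7, 54.6 and 94.1 CPM in challenged controls 1 to 3, and 58.5, 64.7 and 55.02 CPM in unchallenged controls 1 to 3. Its highest pools were challenged knockout 2 and challenged controls 1 and 3, and all groups overlapped. With challenge its log2 fold change was 0.47 (SE 0.28, 95% interval -0.15 to 1.09, adjusted p = 0.575). Mcm3, another subunit, was at 49.9, 103 and 57.1 CPM in challenged knockouts 1 to 3, 70.1, 50.02 and 84.98 CPM in challenged controls 1 to 3, and 43.95, 56.9 and 47.8 CPM in unchallenged controls 1 to 3. Challenged control 2 lay among the unchallenged controls, and the log2 fold change with challenge was 0.46 (SE 0.29, 95% interval -0.17 to 1.10, adjusted p = 0.602). Gins2, a subunit of the GINS complex that joins the helicase, was at 10.3, 18.4 and 15.6 CPM in challenged knockouts 1 to 3, 9.65, 7.75 and 14.4 CPM in challenged controls 1 to 3, and 8.27, 9.80 and 10.4 CPM in unchallenged controls 1 to 3. Its challenged knockouts were all above challenged controls 1 and 2, and with genotype its log2 fold change was 0.48 (SE 0.29, 95% interval -0.18 to 1.13, adjusted p = 0.695). Mcm5 had the largest ratio of highest to lowest library of the 9 genes of this role, from 31.2 CPM in unchallenged control 1 to 113 CPM in challenged knockout 2. The loading factors Cdc6 and Cdt1 ran from 5.14 CPM in unchallenged control 3 to 13.8 CPM in challenged knockout 2 and from 17.3 CPM in challenged knockout 1 to 39.6 CPM in challenged knockout 2. Mcm2, Mcm6 and Mcm7 were highest in challenged knockout 2 as well, at 101.6, 161 and 108 CPM.

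Genes of the clamp and of nucleotide supply include Pcna and Rrm1, with the lowest ratios of highest to lowest library among the 45 (1.70 and 1.80). Pcna, the sliding clamp, was at 86.8, 129 and 104 CPM in challenged knockouts 1 to 3, 102, 84.98 and 126 CPM in challenged controls 1 to 3, and 76.8, 89.6 and 75.8 CPM in unchallenged controls 1 to 3. Challenged control 2 lay below unchallenged control 2. Its log2 fold change with challenge was 0.37 (SE 0.19, 95% interval -0.06 to 0.80, adjusted p = 0.512), with an unadjusted p of 0.0865, the lowest of the 45 in that comparison. Rrm1 and Rrm2, the large and small subunits of ribonucleotide reductase, differed in spread. Rrm1 was at 89.9, 120.4 and 76.6 CPM in challenged knockouts 1 to 3, 95.7, 94.6 and 132 CPM in challenged controls 1 to 3, and 77.2, 100.05 and 73.1 CPM in unchallenged controls 1 to 3, which is a log2 fold change with challenge of 0.36 (SE 0.21, 95% interval -0.12 to 0.84, adjusted p = 0.577). Rrm2 was at 27.7, 48.95 and 25.1 CPM in challenged knockouts 1 to 3, 28.5, 22.9 and 54.3 CPM in challenged controls 1 to 3, and 14.1, 31.1 and 20.1 CPM in unchallenged controls 1 to 3, and its log2 fold change was 0.69 (SE 0.40, 95% interval -0.20 to 1.58, adjusted p = 0.564), or 0.23 without challenged control 3. That pool was its highest, and challenged controls 1 and 2 lay within the range of the unchallenged controls. Tyms (thymidylate synthase) and Tk1 (thymidine kinase) had their highest levels in challenged control 3 too, at 26.1 and 40.4 CPM, and their lowest at 9.97 CPM in unchallenged control 3 and 15.1 CPM in challenged control 1.

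The transcription factor genes went with different blocks. E2f1, an activator of replication genes, was at 14.4, 30.1 and 15.95 CPM in challenged knockouts 1 to 3, 11.5, 13.4 and 20.8 CPM in challenged controls 1 to 3, and 9.63, 15.4 and 13.5 CPM in unchallenged controls 1 to 3. Challenged knockout 2 was its highest pool, as for 10 of the 14 replication genes. With genotype its log2 fold change was 0.40 (SE 0.34, 95% interval -0.35 to 1.16, adjusted p = 0.766), and -0.0034 without challenged knockout 2. Foxm1, an activator of mitosis genes, was at 19.7, 28.2 and 17.8 CPM in challenged knockouts 1 to 3, 17.8, 30.7 and 45.7 CPM in challenged controls 1 to 3, and 13.7, 35.3 and 16.4 CPM in unchallenged controls 1 to 3. It had the order of the mitosis genes, with challenged control 3, unchallenged control 2 and challenged control 2 on top, and a log2 fold change with challenge of 0.53 (SE 0.41, 95% interval -0.40 to 1.45, adjusted p = 0.711). Leaving out challenged control 3 gave 0.15, and leaving out unchallenged control 2 gave 1.06.

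Among cyclins and mitotic kinases, Ccnb1, a cyclin B, was at 25.8, 34.9 and 23.6 CPM in challenged knockouts 1 to 3, 35.1, 54.3 and 54.6 CPM in challenged controls 1 to 3, and 30.04, 59.4 and 18.3 CPM in unchallenged controls 1 to 3. All its challenged knockouts lay below all challenged controls, the nearest pair almost touching, while unchallenged control 2 was above every other library. Its log2 fold change with genotype was -0.77 (SE 0.38, 95% interval -1.62 to 0.07, adjusted p = 0.626). Ccna2, cyclin A, was at 27.6, 43.3 and 25.7 CPM in challenged knockouts 1 to 3, 32.1, 52.8 and 69.9 CPM in challenged controls 1 to 3, and 23.2, 58.7 and 25.4 CPM in unchallenged controls 1 to 3, with a log2 fold change with genotype of -0.68 (SE 0.40, 95% interval -1.57 to 0.21, adjusted p = 0.686). Cdk1, the kinase both cyclins bind, was at 18.6, 35.2 and 20.4 CPM in challenged knockouts 1 to 3, 24.99, 35.4 and 47.1 CPM in challenged controls 1 to 3, and 18.7, 36.1 and 16.4 CPM in unchallenged controls 1 to 3, with a log2 fold change with challenge of 0.59 (SE 0.36, 95% interval -0.22 to 1.40, adjusted p = 0.604). Its 3 high control pools were followed closely by challenged knockout 2. Plk1, a kinase of mitotic entry and spindle assembly, had the largest ratio of highest to lowest library of the 45, from 8.69 CPM in unchallenged control 1 to 34.9 CPM in challenged control 3. Ccnb2, Aurka and Aurkb were also lowest in unchallenged control 1 and highest in challenged control 3, at 48.4, 21.6 and 30.3 CPM there.

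The spindle checkpoint holds back the anaphase-promoting complex until chromosomes are attached. Bub1, a checkpoint kinase, was at 8.45, 10.2 and 5.37 CPM in challenged knockouts 1 to 3, 10.3, 14.03 and 17.2 CPM in challenged controls 1 to 3, and 5.55, 14.2 and 4.67 CPM in unchallenged controls 1 to 3. Ttk, the kinase upstream of it, was at 7.75, 8.79 and 5.55 CPM in challenged knockouts 1 to 3, 10.6, 13.1 and 14.3 CPM in challenged controls 1 to 3, and 7.95, 14.1 and 3.99 CPM in unchallenged controls 1 to 3. In both, all challenged knockouts lay below all challenged controls, in Bub1 with the nearest pair almost touching. The log2 fold change with genotype was -0.79 (SE 0.43, 95% interval -1.76 to 0.18, adjusted p = 0.664) for Bub1 and -0.78 (SE 0.40, 95% interval -1.68 to 0.11, adjusted p = 0.638) for Ttk. Ube2c, the ubiquitin-conjugating enzyme of the anaphase-promoting complex, was at 24.9, 41.6 and 27.2 CPM in challenged knockouts 1 to 3, 34.3, 60.6 and 61.8 CPM in challenged controls 1 to 3, and 25.3, 56.9 and 23.05 CPM in unchallenged controls 1 to 3. Challenged knockout 2 overlapped challenged control 1, and the log2 fold change was -0.74 (SE 0.38, 95% interval -1.58 to 0.10, adjusted p = 0.635). Cdc20, the activator of that complex, ran from 28.5 CPM in unchallenged control 1 to 101 CPM in challenged control 3, and Bub1b from 12.2 CPM in challenged control 1 to 39.9 CPM in challenged control 3.

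Centromere and kinetochore genes included Cenpa, the histone variant that marks centromeres, at 18.8, 25.1 and 21.04 CPM in challenged knockouts 1 to 3, 25.1, 40.1 and 43.7 CPM in challenged controls 1 to 3, and 18.3, 38.6 and 17.6 CPM in unchallenged controls 1 to 3. The highest challenged knockout (25.07 CPM) lay barely below the lowest challenged control (25.11 CPM), and unchallenged control 2 lay between challenged controls 1 and 2. With genotype its log2 fold change was -0.75 (SE 0.33, 95% interval -1.48 to -0.02, adjusted p = 0.578), unadjusted p = 0.0454. Cenpe, a kinetochore motor, was at 16.04, 30.8 and 14.8 CPM in challenged knockouts 1 to 3, 28.1, 35.6 and 43.0 CPM in challenged controls 1 to 3, and 22.1, 32.9 and 12.3 CPM in unchallenged controls 1 to 3, and its log2 fold change was -0.79 (SE 0.38, 95% interval -1.64 to 0.06, adjusted p = 0.618). Cenpf was at 25.8, 33.9 and 23.4 CPM in challenged knockouts 1 to 3, 26.7, 51.6 and 63.4 CPM in challenged controls 1 to 3, and 29.1, 56.6 and 23.8 CPM in unchallenged controls 1 to 3, with a log2 fold change of -0.77 (SE 0.38, 95% interval -1.61 to 0.07, adjusted p = 0.624). In Cenpe and Cenpf, challenged knockout 2 lay above challenged control 1. The NDC80 complex genes Ndc80 and Nuf2 and Birc5 (survivin, of the chromosomal passenger complex) were all highest in challenged control 3, at 16.7, 19.4 and 34.7 CPM.

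The 9 spindle and cytokinesis genes had a median log2 fold change with genotype of -0.69. Kif20a, a kinesin of the central spindle, was at 16.5, 16.5 and 10.4 CPM in challenged knockouts 1 to 3, 14.5, 34.1 and 33.1 CPM in challenged controls 1 to 3, and 12.8, 30.4 and 12.1 CPM in unchallenged controls 1 to 3. With genotype it had the lowest log2 fold change of the 45, -0.91 (SE 0.43, 95% interval -1.87 to 0.04, adjusted p = 0.612), although challenged control 1 lay among the knockouts. Kif23, another cytokinesis kinesin, was at 25.8, 32.3 and 24.8 CPM in challenged knockouts 1 to 3, 27.7, 46.2 and 62.3 CPM in challenged controls 1 to 3, and 26.6, 56.3 and 31.2 CPM in unchallenged controls 1 to 3, and its log2 fold change was -0.72 (SE 0.34, 95% interval -1.47 to 0.03, adjusted p = 0.613). Hmmr, a spindle and hyaluronan receptor protein, was at 18.8, 17.2 and 13.4 CPM in challenged knockouts 1 to 3, 18.6, 31.4 and 33.2 CPM in challenged controls 1 to 3, and 20.04, 35.8 and 13.3 CPM in unchallenged controls 1 to 3, with a log2 fold change of -0.75 (SE 0.36, 95% interval -1.54 to 0.04, adjusted p = 0.616). In Hmmr challenged knockout 1 lay just above challenged control 1, and unchallenged control 2 was the highest of all. Tpx2 (61.0 CPM), Kif11 (54.8 CPM), Prc1 (60.3 CPM), Anln (136 CPM) and Ect2 (57.3 CPM) were highest in challenged control 3, and Nusap1 (44.7 CPM) in unchallenged control 2.

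Mki67 and Top2a are the usual markers of dividing cells. Mki67, the Ki-67 protein of the chromosome surface, was at 83.96, 99.2 and 55.2 CPM in challenged knockouts 1 to 3, 99.9, 158 and 188 CPM in challenged controls 1 to 3, and 80.6, 170.2 and 59.6 CPM in unchallenged controls 1 to 3. It averaged 79.4 ± 22.4 CPM in challenged knockouts, 149 ± 44.9 CPM in challenged controls and 103 ± 58.8 CPM in unchallenged controls (SD, n = 3 pools each). All 3 challenged knockouts lay below all 3 challenged controls, with challenged knockout 2 just under challenged control 1, while unchallenged controls 1 and 3 lay among the knockouts. Its log2 fold change with genotype was -0.90 (SE 0.39, 95% interval -1.78 to -0.03, adjusted p = 0.573), unadjusted p = 0.0443. It was -0.69 without challenged control 3 and -1.12 without challenged control 1. With challenge it was 0.52 (SE 0.39, 95% interval -0.35 to 1.39, adjusted p = 0.689), and 1.09 without unchallenged control 2. Top2a, the topoisomerase that untangles sister chromosomes, was at 83.1, 132 and 63.8 CPM in challenged knockouts 1 to 3, 111, 144 and 205 CPM in challenged controls 1 to 3, and 69.2, 149 and 64.6 CPM in unchallenged controls 1 to 3. Challenged knockout 2 lay above challenged control 1. Its log2 fold change was -0.72 (SE 0.38, 95% interval -1.57 to 0.13, adjusted p = 0.652) with genotype and 0.70 (SE 0.38, 95% interval -0.15 to 1.55, adjusted p = 0.535) with challenge.

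**Figure D5:**
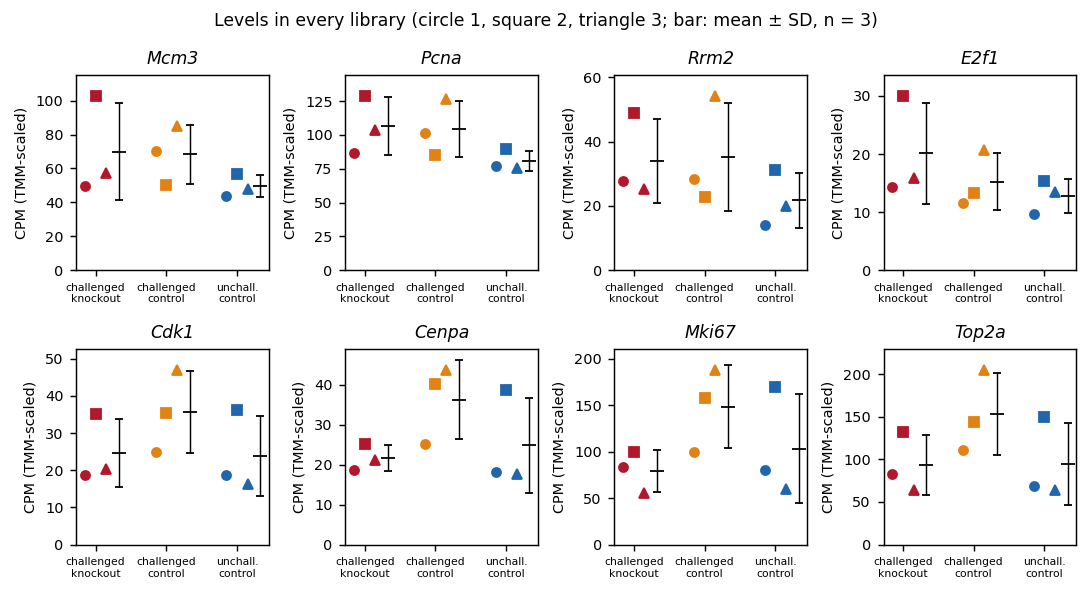
CPM of 8 of the genes in each library, with the symbol giving the replicate number and the black bar the mean ± SD of 3 pools. Mki67 and Cenpa are the 2 genes in which the challenged knockouts lie below the challenged controls without overlap among those drawn, and in each mitosis gene drawn unchallenged control 2 lies far above unchallenged controls 1 and 3.

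Other lists of cell cycle genes held 0 genes that passed by edgeR in any of the 3 comparisons. At an unadjusted p of 0.05, 1 of 30 other replication genes was higher with challenge (6.77% of all genes). At that p, 1 of 45 other mitosis genes was lower with genotype (4.53% of all genes). Among 30 other replication genes the log2 fold change with challenge was above 0 for 29, with a median of 0.36, and with genotype it was above 0 for 15 of 30. Dbf4, the activator of the origin-firing kinase Cdc7, was at 14.2, 12.2 and 12.6 CPM in challenged knockouts 1 to 3, 17.4, 17.97 and 26.2 CPM in challenged controls 1 to 3, and 10.05, 18.1 and 8.56 CPM in unchallenged controls 1 to 3, highest in challenged control 3. The log2 fold change with challenge was 0.74 (SE 0.30, adjusted p = 0.325) for Dbf4, 0.90 (SE 0.44, adjusted p = 0.458) for the replication initiation factor Mcm10 and 0.62 (SE 0.35, adjusted p = 0.554) for Pole, a catalytic DNA polymerase subunit. Among 45 other mitosis genes the median was 0.46 with challenge, with 45 above 0, and -0.45 with genotype, with 44 below 0. Depdc1a was at 4.75, 6.43 and 3.26 CPM in challenged knockouts 1 to 3, 9.28, 11.7 and 11.1 CPM in challenged controls 1 to 3, and 7.90, 11.3 and 3.46 CPM in unchallenged controls 1 to 3, without overlap between challenged knockouts and challenged controls. Between the genotypes Depdc1a had a log2 fold change of -1.15 (SE 0.41, adjusted p = 0.494). The kinetochore gene Knl1 had a log2 fold change of -0.86 (SE 0.40, adjusted p = 0.613) with genotype, and the condensin gene Ncapg one of 0.75 (SE 0.37, adjusted p = 0.47) with challenge.

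Among genes that act before replication, of 19 genes of G1 cyclins and the E2F and Rb families 18 were tested, with a median log2 fold change of 0.24 with challenge and -0.13 with genotype. Ccne1, cyclin E, had a log2 fold change with challenge of 0.85 (SE 0.38, adjusted p = 0.414) and its kinase Cdk2 0.38 (SE 0.18, adjusted p = 0.457). Without challenged control 3 that of Ccne1 was 0.38. For Myc, a growth regulator, it was 0.87 (SE 0.43, adjusted p = 0.474), or 0.15 without challenged control 1, with 108 CPM in challenged control 1, against 36.4 and 36.9 CPM in challenged controls 2 and 3. Myc was at 47.0, 58.4 and 100.4 CPM in challenged knockouts 1 to 3, and 36.0, 28.7 and 34.9 CPM in unchallenged controls 1 to 3. Of 12 CDK inhibitor and antiproliferative genes, 2 were higher and 2 lower with challenge at an unadjusted p of 0.05 (6.77% and 5.65% of all genes). Ccng2, a cyclin of resting cells, was at 77.2, 53.4 and 67.3 CPM in challenged knockouts 1 to 3, 129, 91.9 and 105 CPM in challenged controls 1 to 3, and 68.9, 63.4 and 52.2 CPM in unchallenged controls 1 to 3. Every challenged control lay above every library of the other groups. With challenge the log2 fold change of Ccng2 was 0.82 (SE 0.19, adjusted p = 0.113). With the replicate number as a block, a pairing read from these same data, its adjusted p was 0.0356. Gas1, a growth arrest gene, was at 129, 90.6 and 102 CPM in challenged knockouts 1 to 3, 44.2, 95.7 and 73.2 CPM in challenged controls 1 to 3, and 117, 156 and 152 CPM in unchallenged controls 1 to 3, lower in every challenged control than in any unchallenged control. For Gas1 the log2 fold change with challenge came to -0.996 (SE 0.27, adjusted p = 0.149). Btg1, an antiproliferative gene, had a log2 fold change with challenge of 0.68 (SE 0.21, adjusted p = 0.206), and 0.39 without challenged control 1, its highest pool. Skeletal muscle genes, from tissue next to the conjunctiva, moved with the same comparisons. At an unadjusted p of 0.05, all 7 of their list were lower with challenge (5.65% of all genes) and higher with genotype (3.95%). Their sum was 1462 to 1740 CPM in challenged knockouts, 223 to 551 CPM in challenged controls and 1013 to 3507 CPM in unchallenged controls. It was 3507 CPM in unchallenged control 2 and 223 CPM in challenged control 3, which both had high mitosis genes. The part of muscle in these levels was not tested.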

How the data were processed

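Messenger RNA of 9 conjunctiva libraries was counted. The authors deposited raw read counts per gene symbol; the submitters' processing notes name HISAT2, Bowtie2, DESeq2 and mm39, while tool versions, the counting program and strandedness were not stated in the sources at hand. No 2 libraries of a group were copies. Counts were tested with edgeR 4.0.16 (quasi-likelihood, R 4.3.3, limma 3.58.1) in 1 fit of all 9 libraries after filterByExpr and TMM, with Benjamini-Hochberg adjustment over 15613 genes and two-sided tests. The test recovered known changes on simulated data. That check does not show its power at the fold changes and spread of the replication and mitosis genes. Each library is a pool of mice, so the tests measure spread between pools. Whether challenged and unchallenged pools share mice is not stated, and the main fit treats all pools as unlinked.

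Alternatives were DESeq2 1.42.0, its size factors, no filter, only the groups compared, the replicate number as a block, and each library left out. Same-numbered challenged and unchallenged controls deviated together from their group means (correlations 0.48, 0.273 and 0.527 for numbers 1 to 3). Differently numbered control pools had correlations of -0.466 to 0.09, but challenged knockout 2 had 0.398 with challenged control 3. The deviations of a group cancel out over its pools, so these correlations depend on each other and cannot test a pairing. The replicate block, used only as an alternative, rests on this pattern in the same counts and on no stated pairing. Challenged knockouts had mixed correlations with challenged controls (0.338, -0.168 and 0.353) and with unchallenged controls (0.317, -0.0875 and 0.366). They were not taken as paired, a choice that rests on the negative values of number 2. The block was nevertheless fitted over all 9 libraries, knockouts included. Genes given with all values were, per role, up to 3 with the lowest unadjusted p in the first or second comparison; fold changes are given for that comparison, and for both in Mki67 and Top2a. Members and lists were chosen with earlier results of these data known. Levels by library used log2(CPM + 0.5).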

Additional observations from a re-analysis of the deposited data

How the results depend on the processing

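In every alternative run, including each library left out, 0 of the 45 genes passed in any comparison. The count over all genes did depend on the processing. With challenge it was 10, and 770 by DESeq2, 20 without a filter on low counts, 1 with only the groups compared, 267 with the replicate block and 0 to 121 with 1 library left out (omitting unchallenged control 2 or 3 left 0, challenged control 3 left 1, challenged knockout 3 left 5, challenged knockout 1 left 6, challenged control 2 left 35 and unchallenged control 1 left 121). With genotype it was 0, and 242 by DESeq2 and 22 with the replicate block; the numbers were not taken to pair the knockouts. For challenged knockouts against unchallenged controls it was 0, and 14 by DESeq2. The median of the 45 genes kept its sign in all alternatives with challenge (0.23 to 0.92) and with genotype (-0.81 to -0.29). For challenged knockouts against unchallenged controls it was -0.07, from -0.32 to 0.43 with 1 library left out and 0.02 with the replicate block. Of 37 log2 fold changes of single genes, each under 14 alternatives, 517 of 518 values kept their direction. Most of these genes were picked for a low p, and many move together. Leaving out a library of the group not compared hardly moves a value. The count is thus a description and not a measure of how firm the values are. E2f1 with genotype ran from -0.0034 to 0.70 with 1 library left out. The cause was not tested. Leaving out 1 library moved 15 of 19 such values with challenge and 7 of 17 with genotype (Flt4 aside) by over 1.5 times. With the replicate block, 15 of the 45 genes were lower with genotype at an unadjusted p of 0.05 (7.88% of all genes). Ccng2 with challenge passed by DESeq2 (0.84, adjusted p = 0.00687) and with the block (0.81), and Gas1 by DESeq2 (-0.99, adjusted p = 0.0212). The 95% intervals, a median of 0.85 to either side, limit what 3 pools a group can show.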
